A study of Mus musculus with 8 samples.

Results

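The genes described here are 9 adhesion molecules and selectin ligands through which leukocytes leave the blood: *Vcam1*, *Icam1*, *Icam2*, *Madcam1*, *Sele*, *Selplg*, *Pecam1*, *F11r* and *Jam2*. They were chosen by name, as the rows whose gene symbol stood on that list, and all 9 were found among the 21859 genes of the count files. RNA from whole aortas was compared between 4 ApoE-/- mice (labelled ApoE knockout) and 4 WT mice (labelled Wild Type), all male, C57BL/6, 40 weeks old and fed a chow diet with no other treatment. The *Apoe* deletion was in the germline, so it reached every cell type. Each library came from 1 mouse. The comparison asked which transcripts differ between an atherosclerosis-prone aorta and a control aorta.

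Leukocytes are slowed by selectins, which bind sugars on scaffold proteins such as P-selectin glycoprotein ligand 1, and then stop when their integrins bind endothelial ligands of the immunoglobulin superfamily. They cross the endothelium at its junctions, where PECAM-1 and the junctional adhesion molecules sit. The expression of *Vcam1*, *Icam1* and *Sele* in cultured endothelium is known to depend on inflammatory cytokines and NF-kappaB, whereas *Icam2*, *Pecam1* and *Jam2* are expressed by resting endothelium.

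The values below are read pairs per gene, scaled to libraries of 1000000 assigned pairs (CPM) with library sizes adjusted by TMM. Between 23240995 and 23940156 pairs per ApoE-/- library and between 18375898 and 21664598 per WT library were assigned to genes. *Apoe* itself averaged 25.2 ± 10.7 CPM in ApoE-/- and 717 ± 145 CPM in WT aortas (SD, n = 4 each), which is −4.83 on the log2 scale (SE 0.37) with an adjusted p of 0.0141 in edgeR. The aortic label was met by the defining markers: *Myh11* of contractile smooth muscle spanned 1884 to 8224 CPM and *Vwf* of endothelium 502 to 1182 CPM over all 8 libraries. ApoE-/- replicate 1 stood apart, with a mean log2 CPM over 8 contractile smooth muscle markers of 8.01 against 9.17 to 10.03 in the other 7 libraries, and with a cardiac muscle mean of 4.13 against 1.82 to 2.04 in the other ApoE-/- mice. All 8 cardiac muscle markers had a log2 fold change below 0 and 7 of them did not overlap between genotypes, against 3.3% of all tested genes in that direction (summed level 160 to 342 CPM in ApoE-/- and 414 to 717 CPM in WT), the exception being *Ryr2*, and only the atrial light chain *Myl7* was at 0 in any library. With ApoE-/- replicate 1 left out, their median log2 fold change was −3.38 in place of −2.61 and edgeR called 6 as lower (1.16% of all genes) in place of 0 (0.464% of all genes in either direction). *Ryr2* alone made up a large part of the summed cardiac level, with 123 to 311 CPM in ApoE-/- and 192 to 335 CPM in WT. The part of cardiac tissue in the results below was not tested. Values of the members without replicate 1 are therefore given beside the main ones.

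*Vcam1*, *Sele* and *Selplg* stood 4.12-fold, 2.89-fold and 3.21-fold higher in ApoE-/- aortas, and each was higher in every ApoE-/- mouse than in any WT mouse. *F11r* and *Jam2*, both junctional adhesion molecules, were lower in every ApoE-/- mouse than in any WT mouse, at 0.777 and 0.787 of the WT level. The values of *Icam1*, *Icam2* and *Pecam1* overlapped between genotypes, and *Madcam1* was at or below the limit of detection in all but 1 library. Complete separation of this kind was seen for 5.41% of all tested genes in the higher direction and 3.3% in the lower direction, so 3 and 2 of the 8 tested members compare with those shares.

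None of the 8 tested members passed an adjusted p of 0.05 in the main test, the quasi-likelihood F test of edgeR with Benjamini-Hochberg adjustment over 15077 genes, which called 70 genes in all or 0.464% of those tested. At an unadjusted p of 0.05 the same test held 5 members (3 higher, 2 lower), against 11.4% of all genes. DESeq2 called 4 members at an adjusted p of 0.05, namely *Vcam1*, *Sele* and *Selplg* as higher and *Jam2* as lower, where it called 2.84% of its genes as higher and 1.45% as lower. Without ApoE-/- replicate 1, edgeR called *Vcam1*, *Sele* and *Selplg* as higher, with 2.75% of all genes called as higher and 1.16% as lower. With any other single mouse left out instead, edgeR called 0 members. The median log2 fold change of the 8 members was 0.08, against 0.05 for all tested genes, with 4 members above 0 and 4 below where 58.0% of all tested genes were above 0. Without ApoE-/- replicate 1 no member changed sign, the median of all tested genes was 0.005 and 50.8% of them were above 0.

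**Figure D1:**
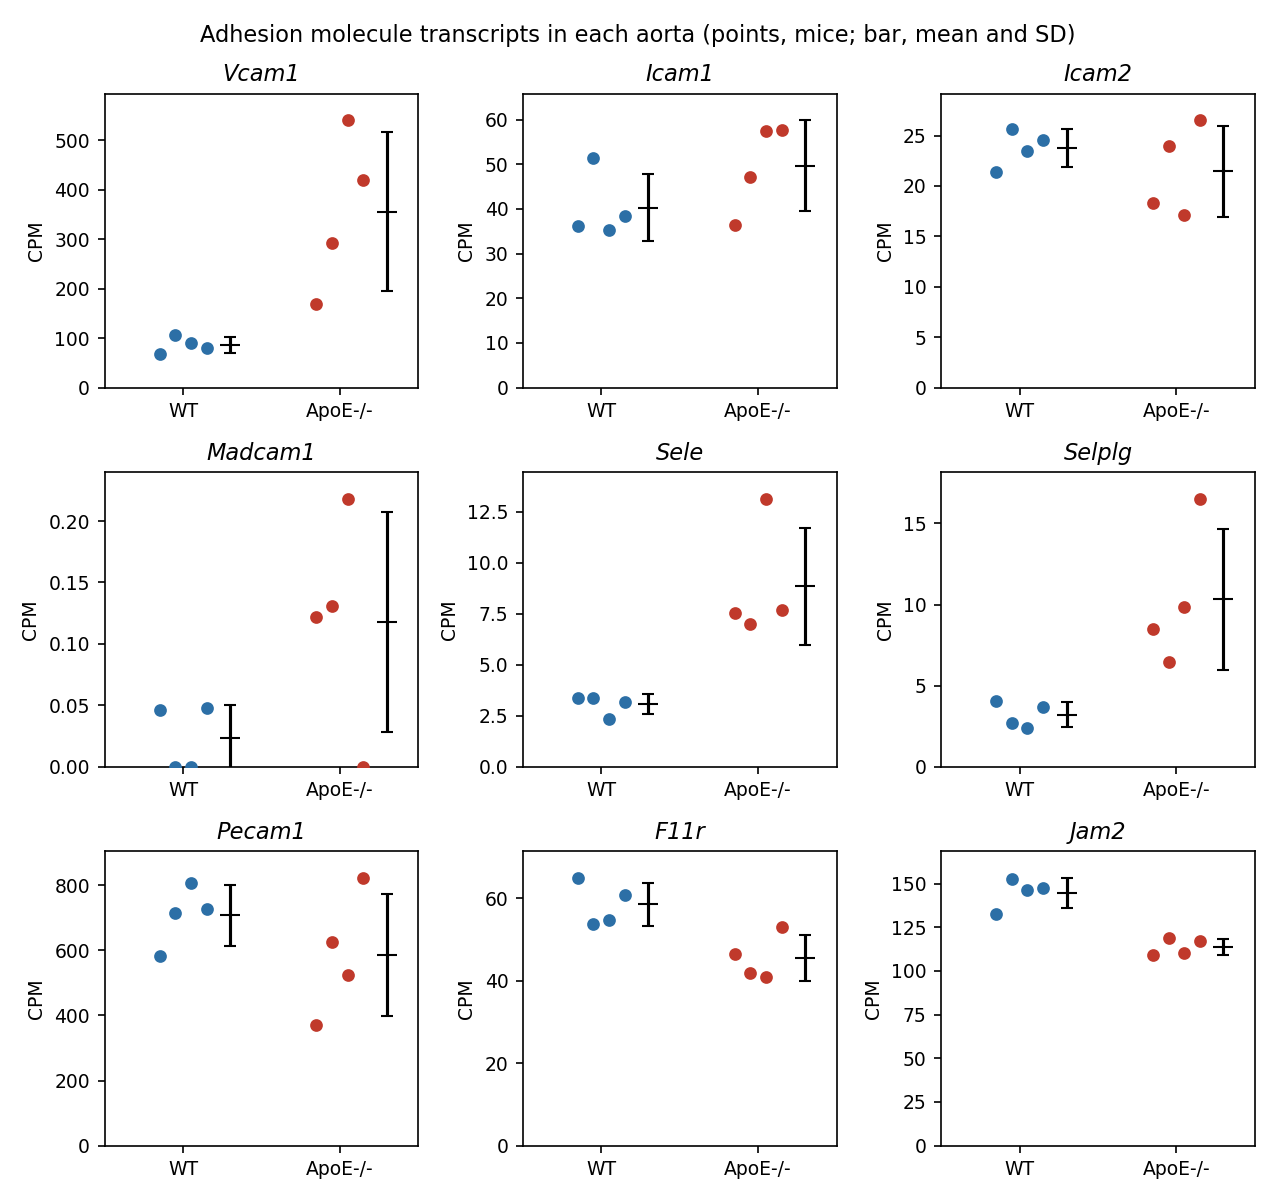
Levels of the 9 genes in CPM (vertical axes, each from 0) in the 4 WT and 4 ApoE-/- aortas. Points are mice in replicate order, and the bar beside them gives the mean and SD. *Vcam1*, *Sele* and *Selplg* separate upward and *F11r* and *Jam2* downward, while the lowest ApoE-/- value of *Icam1* (36.4 CPM) lies among the WT values.

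*Vcam1* (ENSMUSG00000027962.14, GRCm38 chr3:116109949-116129688, minus strand) encodes VCAM-1, the endothelial ligand of the integrin α4β1, and is also expressed by activated smooth muscle cells and fibroblasts. Its level was 169, 292, 541 and 420 CPM in ApoE-/- replicates 1 to 4, and 68.3, 105.8, 91.0 and 80.1 CPM in WT replicates 1 to 4. The lowest ApoE-/- mouse, replicate 1, was above the highest WT mouse, and the ApoE-/- group was the more dispersed (355 ± 161 against 86.3 ± 16.0 CPM, SD, n = 4 each). The log2 fold change was 2.04 (SE 0.35, 95% confidence interval 1.24 to 2.84, edgeR adjusted p = 0.0526, DESeq2 adjusted p = 1.67e-06). Without replicate 1 it was 2.28, with an edgeR adjusted p of 0.00621. Since the aorta was sequenced whole, a change in the number of cells of a type and a change in RNA per cell cannot be told apart for this or any other member. The annotation holds an antisense gene, Gm43109, that shares 61 exonic bases with *Vcam1*, but the counting was strand-specific and that gene has no row in the files.

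*Icam1* (ENSMUSG00000037405.8, chr9:21015985-21028817, plus strand) encodes ICAM-1, the ligand of the β2 integrins LFA-1 and Mac-1. The 4 ApoE-/- mice had 36.4, 47.1, 57.5 and 57.8 CPM and the 4 WT mice 36.3, 51.3, 35.3 and 38.4 CPM. The groups overlapped, with WT replicate 2 above both ApoE-/- replicates 1 and 2 and WT replicate 4 above ApoE-/- replicate 1. In edgeR the difference was 0.30 on the log2 scale (SE 0.19, adjusted p = 0.650). Its 95% confidence interval was −0.12 to 0.73, so neither no difference nor a 1.66-fold higher level lay outside what the 8 mice allow. Without ApoE-/- replicate 1 the log2 fold change was 0.43 with an interval of 0.08 to 0.78 and an edgeR adjusted p of 0.180. *Icam1* shares 511 exonic bases with the antisense gene Gm47079, which also has no row in the files.

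The ratio of *Vcam1* to *Icam1* within each library is given as a description with no test, since the pair was chosen after its values were seen. There were 4.64, 6.20, 9.41 and 7.27 *Vcam1* read pairs for each *Icam1* pair in the ApoE-/- mice and 1.88, 2.06, 2.58 and 2.09 in the WT mice. This ratio needs no scaling of libraries and did not overlap between genotypes (6.88 ± 2.00 against 2.15 ± 0.30, SD, n = 4 each). The ratio of *Vcam1* to *Pecam1*, 0.616 against 0.122, did not overlap either. Of the 4 ratios computed in this way, that of *Sele* to *Icam1* (0.179 against 0.0766) was also without overlap, and that of *Sele* to *Vcam1* (0.0278 against 0.0365) overlapped.

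*Icam2* (chr11:106377656-106388075, minus strand) encodes ICAM-2, a β2 integrin ligand of resting endothelium and platelets. Its level was 18.3, 23.9, 17.1 and 26.5 CPM in ApoE-/- and 21.3, 25.7, 23.4 and 24.6 CPM in WT replicates 1 to 4. The ApoE-/- values lay on both sides of the WT range. Its log2 fold change was −0.15 (SE 0.16, 95% confidence interval −0.51 to 0.22, edgeR adjusted p = 0.815), and without ApoE-/- replicate 1 it was −0.08.

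*Madcam1* (chr10:79664559-79668537, plus strand) encodes MAdCAM-1, the ligand of the integrin α4β7 on venules of the gut and its lymphoid tissue. It had 3, 3, 5 and 0 read pairs in the ApoE-/- and 1, 0, 0 and 1 in the WT libraries, and the filter on low counts removed it from the main test. Only ApoE-/- replicate 3 exceeded the floor of 3 read pairs, which corresponds to 0.125 to 0.163 CPM across libraries, and 3 libraries were at 0. The sums of 11 and 2 pairs were not distinguished (two-sided exact permutation test on log2 CPM over 8 mice, p = 0.143, the smallest possible being 0.0286). Counts this low do not decide whether the level differed. Its DESeq2 adjusted p was 0.713.

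*Sele* (ENSMUSG00000026582.6, chr1:164048234-164057677, plus strand) encodes E-selectin, which is made by endothelium and binds sialylated and fucosylated sugars on rolling leukocytes. Its level was 7.55, 7.00, 13.1 and 7.68 CPM in ApoE-/- and 3.35, 3.37, 2.33 and 3.16 CPM in WT replicates 1 to 4, which rest on 160 to 301 and 42 to 73 read pairs. Every ApoE-/- mouse was above every WT mouse, and replicate 3 stood above the other 3 ApoE-/- mice. edgeR gave a log2 fold change of 1.53 (SE 0.25, 95% confidence interval 0.95 to 2.11, edgeR adjusted p = 0.0523, DESeq2 adjusted p = 1.2e-05). Without ApoE-/- replicate 1 it was 1.60 (edgeR adjusted p = 0.0187), and the lowest value over the 8 fits that leave out 1 mouse each was 1.28.

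The 250 bases before the start of *Sele* (chr1:164047984-164048233, GRCm38.p6, plus strand, RefSeq start) are printed because *Sele* is the member most restricted to endothelium among those that separated upward. Those before the RefSeq start of *F11r* (chr1:171437311-171437560, plus strand), whose last 26 bases lie inside the gene as GENCODE bounds it, are printed because they share a motif with *Sele* although *F11r* was lower. Capitals mark the AP-1 motif TGANTCA and, in *Sele*, the TATA box motif TATAAA.
Sele: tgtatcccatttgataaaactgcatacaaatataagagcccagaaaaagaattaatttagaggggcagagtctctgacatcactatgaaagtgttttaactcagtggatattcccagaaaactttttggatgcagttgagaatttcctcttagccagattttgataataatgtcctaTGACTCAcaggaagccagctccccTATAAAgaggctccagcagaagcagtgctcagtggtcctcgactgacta
F11r: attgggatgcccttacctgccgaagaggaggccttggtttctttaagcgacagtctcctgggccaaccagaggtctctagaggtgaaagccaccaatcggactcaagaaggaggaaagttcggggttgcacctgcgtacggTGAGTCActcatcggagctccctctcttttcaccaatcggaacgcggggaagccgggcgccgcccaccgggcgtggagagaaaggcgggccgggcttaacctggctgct

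The AP-1 motif lay 73 to 67 bases before the start of *Sele* and 109 to 103 bases before the RefSeq start of *F11r*. It reads as a match on both strands and overlapped no other motif searched, and 6.75% of 32817 RefSeq mouse promoter windows of this length hold it on either strand. The TATA box motif, searched on the sense strand, lay 49 to 44 bases before the start of *Sele* and was in 7.6% of those windows. Promoter windows were given for 4 members, *Sele*, *F11r*, *Icam1* and *Madcam1*. The NF-kappaB consensus, searched on both strands, matched only in *Madcam1* of these 4, at 83 to 74 and 70 to 61 bases before the start on the minus strand (7.25% of all windows). A match is a description of the letters, and *Sele* and *F11r* differed in opposite directions.

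*Selplg* (ENSMUSG00000048163.13, chr5:113818536-113832644, minus strand) encodes PSGL-1, the scaffold on leukocytes that P-selectin and E-selectin bind, so it is the member made chiefly by the cells that roll. Its level was 8.48, 6.43, 9.84 and 16.5 CPM in ApoE-/- and 4.04, 2.71, 2.38 and 3.69 CPM in WT replicates 1 to 4. No values overlapped, and ApoE-/- replicate 4 was the highest. Its log2 fold change was 1.68 (SE 0.32, 95% confidence interval 0.94 to 2.42, edgeR adjusted p = 0.0652, DESeq2 adjusted p = 0.00012), and it was 1.76 (edgeR adjusted p = 0.0327) without ApoE-/- replicate 1. The list of 8 pan-leukocyte markers was higher with it (8 of 8 genes above 0, median log2 fold change 1.58, summed level 235 to 491 CPM in ApoE-/- and 83.1 to 120 CPM in WT, none at 0), and edgeR called 2 of these markers with all mice (0.464% of all genes) and 5 as higher without ApoE-/- replicate 1 (2.75% of all genes), where DESeq2 called 7 with all mice (2.84% of all genes). Measured against the mean of those markers in its own library, *Selplg* differed by only 0.16 on the log2 scale, and the genotypes overlapped (−1.72 to −1.39 in ApoE-/-, −2.03 to −1.45 in WT).

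The study's primers for selectins are shown because of where they match. Those listed for *Sele* fell in coding sequence of exons 2 and 3 of *Sele* (chr1:164048711-164048729 and chr1:164049289-164049309), with an amplicon of 128 bp. The pair listed for *Selp*, which encodes P-selectin, matched no *Selp* transcript exactly (6 and 7 edits from the nearest) and matched exactly the coding part of exon 2 of *Selplg* (chr5:113819324-113819344 and chr5:113819151-113819171), with an amplicon of 194 bp.
Sele forward: atgcctcgcgctttctctc
Sele reverse: gtagtcccgctgacagtatgc
Listed for Selp, forward: gaaagggctgattgtgacccc
Listed for Selp, reverse: agtagttccgcactgggtaca

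*Pecam1* (chr11:106654217-106750628, minus strand) encodes PECAM-1 (CD31), a homophilic junction protein of endothelium that is also present on platelets and leukocytes. Its level was 371, 625, 525 and 821 CPM in ApoE-/- and 581, 714, 807 and 726 CPM in WT replicates 1 to 4. ApoE-/- replicate 1 had the lowest and replicate 4 the highest value of all 8 mice, so the groups overlapped entirely. In edgeR the log2 difference was −0.27 (SE 0.25, 95% confidence interval −0.84 to 0.30, edgeR adjusted p = 0.792) and moved to −0.11 without ApoE-/- replicate 1.

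*F11r* (chr1:171437535-171464603, plus strand) encodes JAM-A, a tight-junction protein of endothelium, epithelium and platelets. Its level was 46.5, 41.8, 40.8 and 52.9 CPM in ApoE-/- and 64.9, 53.8, 54.7 and 60.8 CPM in WT replicates 1 to 4. The highest ApoE-/- mouse, replicate 4, was just below the lowest WT mouse. The log2 fold change was −0.36 (SE 0.12, 95% confidence interval −0.63 to −0.10, edgeR adjusted p = 0.237, DESeq2 adjusted p = 0.0778), and it was −0.37 without ApoE-/- replicate 1.

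*Jam2* (chr16:84774123-84825928, plus strand) encodes JAM-B, which is concentrated at endothelial junctions. Its level was 109, 119, 110.3 and 117 CPM in ApoE-/- and 133, 153, 146 and 147 CPM in WT replicates 1 to 4. The spread within groups was small (SD 4.77 and 8.41 CPM), and the groups did not overlap. The log2 fold change was −0.35 (SE 0.09, 95% confidence interval −0.55 to −0.14, edgeR adjusted p = 0.136, DESeq2 adjusted p = 0.00297) and −0.33 without ApoE-/- replicate 1.

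**Figure D2:**
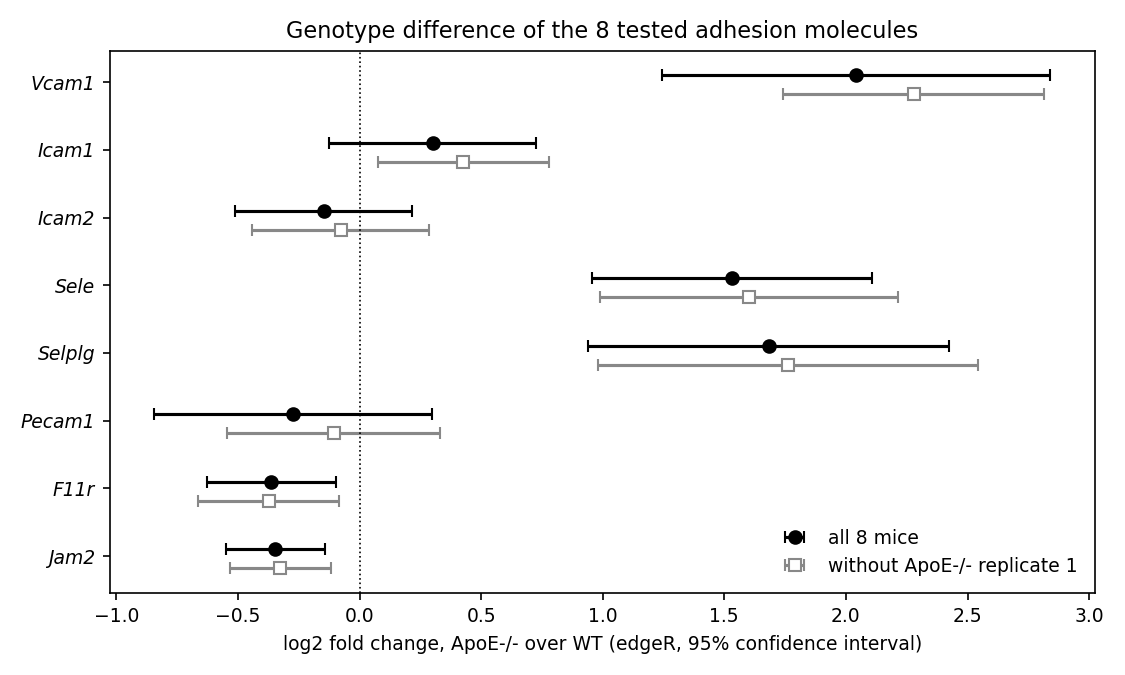
Log2 fold change of ApoE-/- over WT (horizontal axis, edgeR) for the 8 tested members, with 95% confidence intervals. Filled circles use all 8 mice and open squares leave out ApoE-/- replicate 1. *Vcam1* (2.04), *Selplg* (1.68) and *Sele* (1.53) lie right of 0, *F11r* (−0.36) and *Jam2* (−0.35) left of it, and the interval of *Icam1* includes 0 with all 8 mice and does not without replicate 1.

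The order of the members by level was compared per kilobase of exons. In WT aortas *Pecam1* led with a median of 116 CPM per kb (range 93.3 to 130), followed by *Jam2* (24.3), *F11r* (21.7), *Icam2* (12.6), *Vcam1* (9.65), *Icam1* (8.56), *Sele* (1.12), *Selplg* (0.749) and *Madcam1* (0.016). The ranges of neighbours in this order overlapped from *Jam2* to *F11r*, from *Icam2* to *Vcam1* to *Icam1*, and from *Sele* to *Selplg*. In ApoE-/- aortas *Pecam1* was again first (92.3 CPM per kb), and *Vcam1* came next at 40.2 (range 19.0 to 61.0), above *Jam2* (18.8), *F11r* (16.6), *Icam1* (12.0), *Icam2* (11.1), *Sele* (2.62), *Selplg* (2.15) and *Madcam1* (0.0881). *Vcam1* was thus the fifth of the 9 genes in WT and the second in ApoE-/- aortas, although its lowest ApoE-/- mouse lay within the range of *Jam2* and its highest within that of *Pecam1*. Per kilobase of the longest transcript instead of all exons, it was the fourth in WT (20.9) and the second in ApoE-/- aortas (87.1). Even after its difference, *Sele* remained below every ApoE-/- value of *Icam1*, which began at 8.34 CPM per kb.

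**Figure D3:**
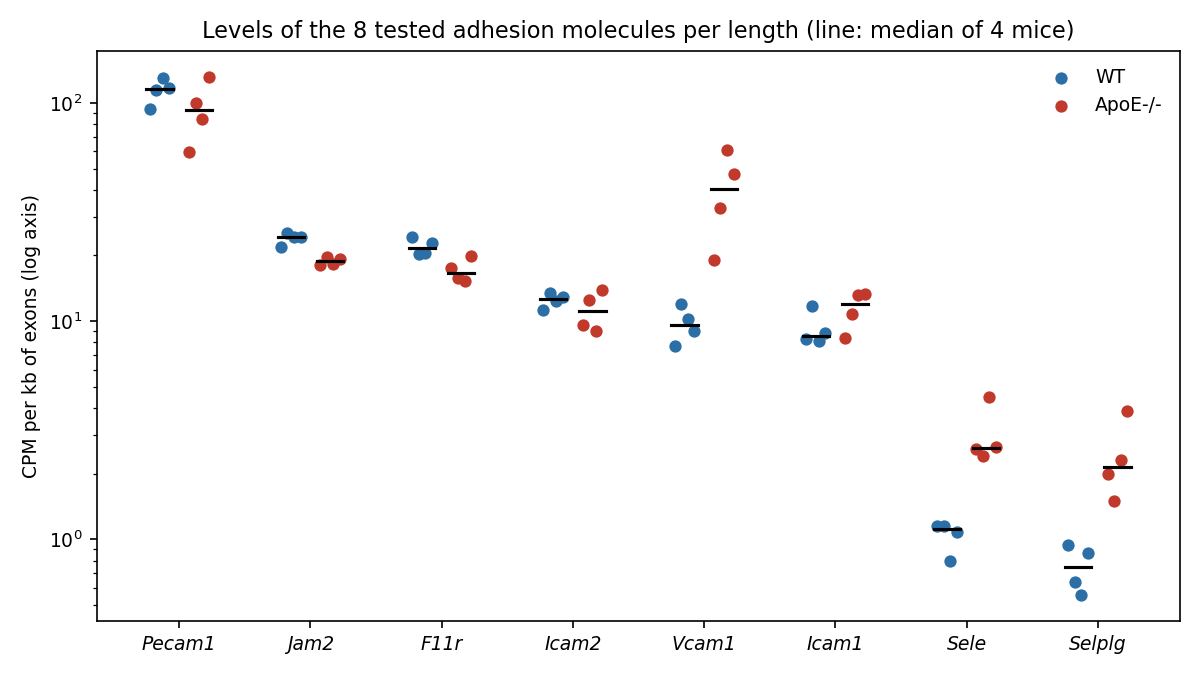
CPM per kilobase of exons (vertical log axis) of the 8 tested members in order of their WT median. Points are mice and lines are the medians of 4. *Vcam1* runs from a WT median of 9.65 to an ApoE-/- median of 40.2, past *Jam2* and *F11r*.

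The markers of endothelium were themselves lower in ApoE-/- aortas, and the members were therefore also set against them. Of 16 markers, 15 had a log2 fold change below 0 (median −0.43), 11 at an unadjusted p of 0.05 (11.4% of all genes in either direction), 9 by DESeq2 (1.45% of all genes) and 0 by edgeR after adjustment, with a summed level of 2519 to 3253 CPM in ApoE-/- and 3546 to 4139 CPM in WT and none at 0. In the fit without ApoE-/- replicate 1 edgeR called 5 of the 16 as lower, against 1.16% of all genes (*Kdr*, *Flt1*, *Emcn*, *Egfl7* and *Robo4*) and the median was −0.42. The part of this shift in the results was not tested. Within each library, *Vcam1* stood higher against the mean log2 CPM of these markers by 2.40 in ApoE-/- than in WT mice, *Selplg* by 2.07 and *Sele* by 1.94, each without overlap. *Icam1*, whose plain values overlapped, did not overlap on this scale: it lay between −1.62 and −0.98 in ApoE-/- and between −2.20 and −1.65 in WT mice, a difference of 0.76. Its plain log2 CPM differed by 0.29. The mean log2 CPM of the markers was 6.79 to 7.00 in ApoE-/- and 7.26 to 7.38 in WT mice. A gene of unchanged CPM thus stands higher on this scale in ApoE-/- mice. The share of all tested genes without overlap on this scale was not computed.

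The junctional members behaved otherwise on the same scale. *Jam2* and *F11r* differed from the endothelial markers of their own library by 0.13 and 0.11 between genotypes, with overlap, so that their lower CPM was close in size to that of the markers. *Pecam1* (0.15) and *Icam2* (0.30) overlapped as well. With only the 5 endothelial markers at an unadjusted p of 0.05 or more as the reference, *Vcam1*, *Selplg*, *Sele* and *Icam1* differed by 2.21, 1.88, 1.75 and 0.57, again without overlap, and *Icam2*, *Pecam1*, *Jam2* and *F11r* by 0.11, −0.05, −0.07 and −0.09 with overlap. These 5 were picked by the same genotype comparison, and the change of reference lowers every member's difference alike, so it is no independent check.

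**Figure D4:**
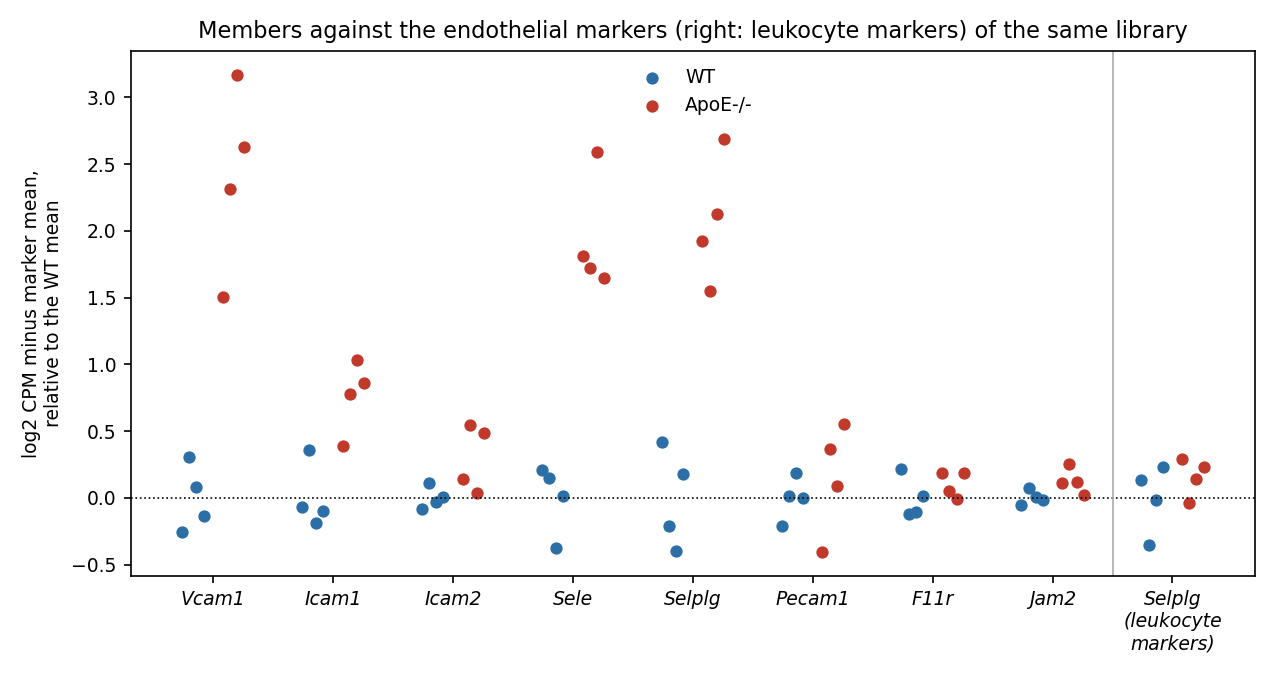
Log2 CPM of each member minus the mean log2 CPM of 16 endothelial markers in the same library (vertical axis, relative to the WT mean; right of the line, *Selplg* minus 8 leukocyte markers). Points are mice. *Vcam1*, *Icam1*, *Sele* and *Selplg* separate by genotype against the endothelial markers, and *Selplg* against the leukocyte markers differs by 0.16 with overlap.

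The other genes of leukocyte recruitment were taken in 6 lists of 63 genes, 59 of them tested. The leukocyte integrins, the partners of VCAM-1 and the ICAMs, had all 7 tested genes above 0 with a median log2 fold change of 1.15. edgeR called 1 of the 7 (0.464% of all genes) and DESeq2 5 (2.84% of all genes as higher). *Itgax*, the αX subunit of macrophages and dendritic cells, rose from 1.53 ± 0.33 to 33.5 ± 21.2 CPM (SD, n = 4 each, log2 fold change 4.44, SE 0.61, edgeR adjusted p = 0.0380). *Itgb2*, the shared β2 subunit, had a log2 fold change of 1.97 (edgeR adjusted p = 0.0709) and *Itgam* of Mac-1 one of 1.58 (edgeR adjusted p = 0.0645), both called by DESeq2. *Itgal* of LFA-1 (1.15) and *Itgb7*, the β7 subunit (0.81), were also called by DESeq2, with DESeq2 adjusted p of 0.00100 and 0.00713, and are named here after their values were seen. The edgeR call of *Itgax* was lost with limma-voom, with the replicate block and in each of the 7 fits that left out a mouse other than ApoE-/- replicate 1, and *Itgax*, *Itgb2* and *Itgam* were called by edgeR without that replicate (2.75% of all genes as higher). *Itga4* and *Itgb1*, the subunits of the VCAM-1 receptor, had log2 fold changes of 0.50 and 0.03 with overlap (0.54 and 0.23 without ApoE-/- replicate 1). *Itga4* had an edgeR unadjusted p of 0.0168 and an edgeR adjusted p of 0.264.

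Among 9 other selectins and ligand scaffolds, edgeR called 0, with 4 higher and 2 lower at an unadjusted p of 0.05 (11.4% of all genes), and DESeq2 called 3 as higher and 1, the endothelial sialomucin *Emcn* (−0.64), as lower (2.84% and 1.45% of all genes). Those called as higher were *Selp* (46.8 ± 15.1 against 19.0 ± 4.1 CPM, log2 fold change 1.30, edgeR adjusted p = 0.0684), the hyaluronan receptor *Cd44* (1.47, edgeR adjusted p = 0.0526) and *Spn*, the leukocyte sialomucin CD43 (1.85, edgeR adjusted p = 0.0725). The same 4 genes were called by edgeR without ApoE-/- replicate 1 (2.75% of all genes as higher and 1.16% as lower), with adjusted p of 0.0136 for *Selp* and 0.00871 for *Cd44*. The median of the list was 0.22, and 0.16 without that library. Of 9 tested enzymes that build selectin ligands, edgeR called 1 (0.464% of all genes): *B4galt5*, a galactosyltransferase, rose from 20.1 ± 2.1 to 42.9 ± 7.1 CPM (log2 fold change 1.09, SE 0.14, edgeR adjusted p = 0.0379). This call was also made by limma-voom and by edgeR without ApoE-/- replicate 1, and was lost with the replicate block and in the 7 edgeR fits without another mouse. The fucosyltransferase *Fut4* (0.48) and the sulfotransferase *Chst2* (0.35) overlapped, and the median was 0.10. Without ApoE-/- replicate 1 *Fut4* had 0.02, *Chst2* 0.16 and the median was 0.05.

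The 13 other adhesion and junction proteins of endothelium had a median of 0.07, with 0 called by edgeR and, at an unadjusted p of 0.05, 1 higher and 4 lower (11.4% of all genes). DESeq2, which called 2.84% of all genes as higher and 1.45% as lower, called *Alcam* (1.32), an adhesion molecule of activated leukocytes and endothelium, as higher, and the junction genes *Cdh5* (−0.37) and *Esam* (−0.35) and the laminin receptor *Bcam* (−0.57) as lower. *Cdh5* and *Esam*, like *Emcn*, are also among the 16 endothelial markers described above. *Jam3*, the relative of *F11r* and *Jam2*, had −0.08 with overlap. The 8 linkers of adhesion molecules to actin had a median of 0.05, with 0 called by edgeR and *Ezr* (0.60), which encodes ezrin, alone at an unadjusted p of 0.05 (11.4% of all genes) and alone called by DESeq2 (2.84% of all genes as higher). *Msn*, which encodes moesin, and the catenin gene *Ctnna1* had 0.18 and −0.16 with overlap. With ApoE-/- replicate 1 left out, edgeR called 0 genes of either list, and the medians were −0.04 and 0.28.

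Of 13 genes of the NF-kappaB pathway, 11 had a log2 fold change above 0 (58.0% of all genes) with a median of 0.26, edgeR called 0, and 5 were at an unadjusted p of 0.05 (11.4% of all genes). The cytokine *Il1b* (2.52 ± 0.62 against 0.741 ± 0.354 CPM, log2 fold change 1.75) and the NF-kappaB inhibitor *Tnfaip3* (28.0 ± 9.9 against 14.6 ± 1.8 CPM, 0.94) were called by DESeq2 (2.84% of all genes as higher), whereas *Tnf* was not (1.47, DESeq2 adjusted p = 0.0629). Without ApoE-/- replicate 1 edgeR called *Tnfaip3* (adjusted p = 0.0274) and the interleukin-1 receptor *Il1r1* (adjusted p = 0.0173), with 2.75% of all genes called as higher. The subunits *Rela* and *Nfkb1* had 0.12 and 0.08 with overlap.

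**Figure D5:**
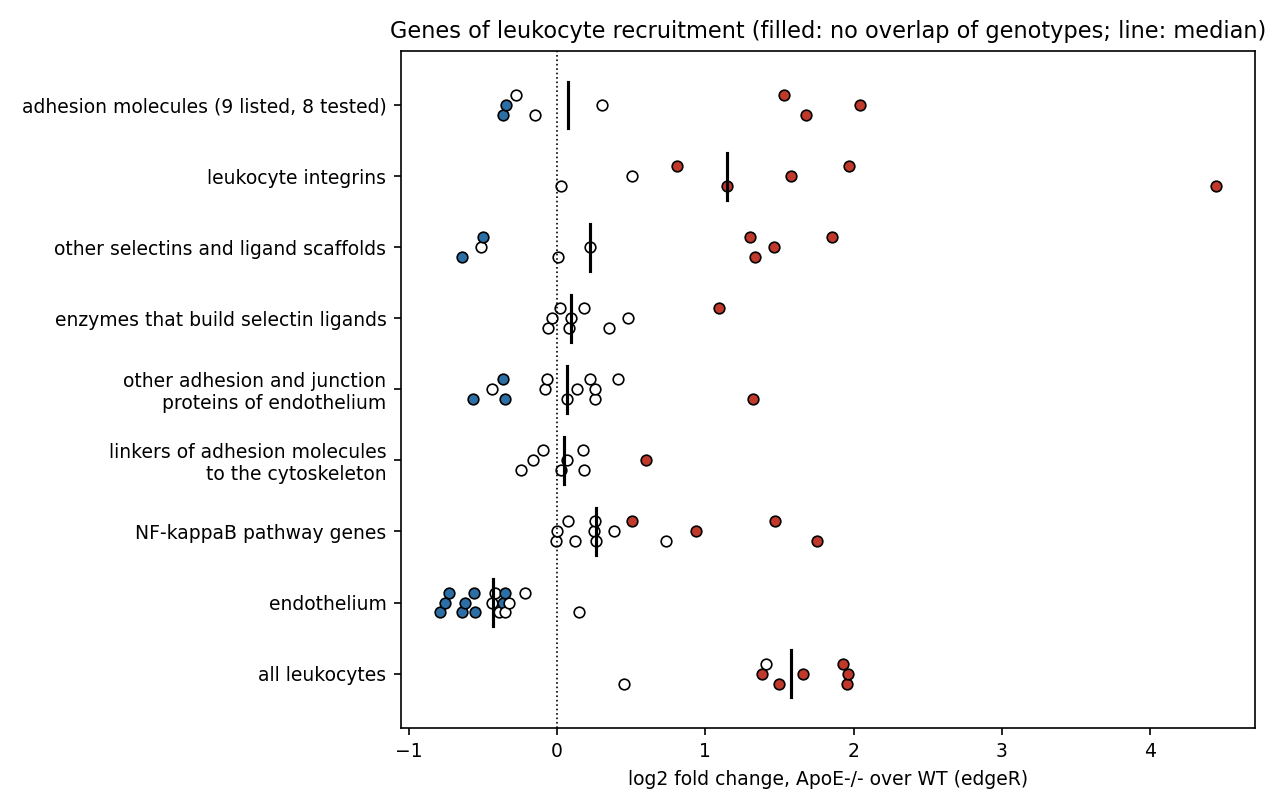
Log2 fold change of ApoE-/- over WT (horizontal axis, edgeR) for the tested genes of each list. Points are genes, filled where the 4 and 4 CPM values did not overlap (red higher, blue lower in ApoE-/-), and the line is the list's median. The members spread to both sides of a median of 0.08, the leukocyte integrins lie around 1.15 and the endothelial markers around −0.43.

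Within genotypes, the members did not vary as one. After the genotype mean was taken from each log2 CPM, *Vcam1* and *Icam1* correlated at r = 0.88 over the 8 libraries (0.73 without ApoE-/- replicate 1), *Icam2* and *Pecam1* at 0.80 (0.82), *Icam2* and *Jam2* at 0.77 (0.73), and *F11r* and *Selplg* at 0.83 (0.88). *Vcam1* and *Pecam1* had 0.65, and 0.06 without that library. *Sele* had 0.51 with both *Icam1* and *Vcam1* (0.49 and 0.54 without that library). These are descriptions over 8 libraries in which all genes share the depth and tissue content of their library.

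The members also differed in the marker lists they followed within genotypes. *Selplg* had r = 0.90 with the pan-leukocyte, 0.81 with the platelet, 0.80 with the lymphatic endothelial, 0.74 with the adipocyte and 0.72 with the macrophage list (0.91, 0.81, 0.79, 0.82 and 0.96 without ApoE-/- replicate 1). *Pecam1* had 0.73 with the endothelial, 0.83 with the fibroblast, 0.76 with the macrophage and −0.78 with the cardiac muscle list (0.84, 0.47, 0.39 and −0.31 without that library). *Vcam1* had 0.40 with the endothelial, 0.90 with the fibroblast, 0.73 with the contractile smooth muscle, 0.71 with the macrophage and −0.85 with the cardiac muscle list (0.31, 0.65, 0.07, 0.17 and −0.46 without that library). *Icam1* had 0.77 with the fibroblast, 0.70 with the macrophage and −0.81 with the cardiac muscle list (0.41, 0.33 and −0.57 without that library). *F11r* had 0.94 with the adipocyte and 0.90 with the platelet list, with 0.94 and 0.91 without that library. *Sele* had −0.17 with the endothelial and 0.41 with the T and B cell list (−0.26 and 0.72 without that library).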

How the data were processed

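Stranded, ribodepleted total RNA libraries were read as pairs of 50 bases. For each mouse, the authors deposited the counts of read pairs assigned to each gene, without normalization. The submitters' processing notes name TopHat2, HTSeq and GRCm38 (mm10), and versions are not given in the sources used here. Pairs without a gene, with more than 1 possible gene or with several alignments were left out. Those without a gene were 50.1% to 54.7% of each ApoE-/- and 56.4% to 58.0% of each WT library. That share did not overlap between genotypes, and its part in the results was not tested. Coordinates and lengths came from GENCODE M21, which held 21817 of 21859 genes, and promoter windows from RefSeq (GRCm38.p6).

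Lowly counted genes were dropped by filterByExpr, and genotypes were compared over all 8 mice with the quasi-likelihood F test of edgeR 4.0.16 (TMM, robust, no covariate, two-sided), adjusted by Benjamini-Hochberg with a threshold of 0.05, in R 4.3.3. DESeq2 1.42.0, limma-voom (limma 3.58.1), other scalings and filters, a replicate block and fits without each mouse were alternatives. The scripts were tested on simulated data. Log2 CPM used a prior count of 2. The exact permutation test of *Madcam1* ran over the 70 assignments of 8 mice. The members and lists were chosen with earlier results of these data known. The rule for named genes took all 9 members, the called genes and the 3 with the smallest p of each recruitment list, the 2 markers with the highest mean CPM of a list, and the 3 genes most like each member, although only those markers that a result turns on are printed. Other genes named beside them (*Itga4*, *Itgb1*, *Emcn*, *Cdh5*, *Jam3*, *Rela*, *Nfkb1*, *Il1r1*, *Myl7*, *Kdr*, *Flt1*, *Egfl7*, *Robo4*, *Trem2* and *Lum*) were chosen after their values were seen. Libraries of 1 genotype differed far beyond sampling noise (smallest chi-square per degree of freedom 26.7), so none was counted as a duplicate. Replicate numbers are shared by the labels but belong to different mice.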

Additional observations from a re-analysis of the deposited data

Results flagged for a closer look

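A sample lay far from the other 3 of its group, with a gap to the nearest of them that exceeded Dixon's critical share of the group's range, in 4 of 54 groups examined, and chance alone flags about 1 in 20 groups (2.7 of 54). *Sele* in ApoE-/- aortas had a ratio of gap to range of 0.888, since replicate 3 had 13.1 CPM and the other 3 mice 7.00 to 7.68 CPM. *Sele* was higher by a log2 fold change of 1.28 without that mouse. In the ApoE-/- group the ratio was 0.855 for the mean log2 CPM of the endothelial markers (replicate 4, 7.00 against 6.79 to 6.82) and 0.861 for the lymphatic endothelial markers (replicate 4, 4.98 against 4.40 to 4.48). It was 0.901 for the cardiac muscle markers (replicate 1, 4.13 against 1.82 to 2.04).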

How the results depend on the processing

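The count of members called was 0 with edgeR under every other scaling, filter and dispersion estimate tried, with limma-voom and with the replicate block. It was 4 with DESeq2, and between 0 and 5 when 1 mouse was left out (0 to 3 with edgeR, where the 3 calls needed the removal of ApoE-/- replicate 1, and 3 to 5 with DESeq2, an alternative chosen after seeing the data). Of all genes, 70 were called by edgeR, 721 by DESeq2, 29 by limma-voom and 0 to 593 when 1 mouse was left out of edgeR. Of the 59 recruitment genes edgeR called 2, DESeq2 17, limma-voom 1, and the fits without 1 mouse 0 to 21 (edgeR 0 to 10, DESeq2 12 to 21). The edgeR calls of *Itgax* and *B4galt5* were lost when any mouse but ApoE-/- replicate 1 was left out, with 0 recruitment genes called in those 7 fits, and 10 were called without that replicate. Of the 8 tested members, no log2 fold change reversed in sign under any of the 24 alternatives. Over the fits without 1 mouse, edgeR gave *Vcam1* 1.77 to 2.28 (adjusted p 0.00621 to 0.202), *Sele* 1.28 to 1.63 (0.0187 to 0.184) and *Selplg* 1.36 to 1.85 (0.0327 to 0.210), each called in 1 of 8 fits, and DESeq2 called these 3 in 8 of 8, *Jam2* in 5 and *F11r* in 1. The adjusted p of these 3 genes lay just above 0.05 with all mice, and the cause of the difference between tools was not tested. With the replicate number as a block, edgeR called 0 members, 0 recruitment genes and 2 genes in all. Mice of the same number correlated at 0.06, −0.45, 0.32 and 0.16 in their deviations, and not every mouse correlated best with its own number, so the numbers were not taken to pair the mice. Use of the longest transcript moved 12 of 18 medians per kilobase, and use of 5 endothelial markers lowered every member's difference relative to endothelium by the same amount, so that *Pecam1*, *F11r* and *Jam2* turned to −0.05, −0.09 and −0.07 and *Icam2* to 0.11, each with overlap. Depth limits *Madcam1*, with 0 to 5 read pairs.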

Other observations

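The genes whose log2 CPM varied most like each member within genotypes were taken among tested genes with a mean of at least 1 CPM, over 8 libraries, and are given as descriptions with no test. For *Vcam1* they were *Htra4* (r = 0.98), *Serpinb6b* (0.98) and the collagen gene *Col8a1* (0.97), and for *Icam1* the tetraspanin *Tspan4* (0.96), the pattern receptor *Tlr2* (0.95) and *Galnt7* (0.95). For *Sele* they were 9930104L06Rik (0.97), *Smad1* (0.97) and *Crb2* (0.96). For *Selplg* they were the lymphotoxin receptor *Ltbr* (0.99), *Rassf4* (0.97) and *Arhgap9* (0.97). For *Pecam1* they were *Serinc3*, *Raly* and *Net1* (0.99 each), and for *Icam2* they were *Zhx1* (0.98), *Kiz* (0.97) and *Zfp120* (0.97). For *F11r* they were *Rnf125* (0.99), the iron exporter *Slc40a1* (0.99) and *Ecsit* (0.98), and for *Jam2* they were *Gpbp1* (0.96), *Ro60* (0.94) and the complement gene *Cfb* (0.93). Without ApoE-/- replicate 1 these correlations lay between 0.90 and 1.00 over 7 libraries. Those libraries are part of the 8 on which the genes were picked for the highest r, so this range is no independent check.

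Markers of other cell types that could lie in an aortic sample varied as follows. All 10 macrophage markers had a log2 fold change above 0 (median 1.74). *Lyz2*, the most abundant of them, had 152 to 998 CPM in ApoE-/- and 73.3 to 122 CPM in WT mice, and *Trem2* had the highest log2 fold change (4.10). Of these 10, edgeR called 2 with all mice (0.464% of all genes) and 8 without ApoE-/- replicate 1 (2.75% as higher), and DESeq2 called 8 with all mice (2.84% as higher). All 8 markers of T and B cells also had a log2 fold change above 0 (median 0.84), at summed levels of only 8.44 to 17.5 and 4.60 to 7.77 CPM, with 0 called by edgeR or DESeq2 and 3 at an unadjusted p of 0.05 (11.4% of all genes). The 6 fibroblast markers were above 0 with a median of 0.84. Their mean log2 CPM was 8.51 in ApoE-/- replicate 1, 9.33 to 9.88 in the other ApoE-/- mice and 8.41 to 8.54 in WT mice, so only replicate 1 lay within the WT range. *Lum* (2.34) and *Col3a1* (1.36) did not overlap (5.41% of all genes in that direction) and were called by DESeq2 (2.84%). Of the 6, edgeR called 0 with all mice (0.464% of all genes) and 4 without replicate 1 (2.75%). The list means overlapped between genotypes for platelets, smooth muscle, adipocytes, epithelium and lymphatic endothelium.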
